A study of Mus musculus with 9 samples.

Results

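The collagens of mouse liver were compared between db/db mice, which carry a mutant leptin receptor and become obese and diabetic, and BKS mice with an intact receptor. A gene counted as a collagen when its symbol in the array annotation was Col, a number, the letter a and a number. This gave 42 genes among 18193 named genes on the array, measured by 82 of 34945 named probe sets, which are groups of short probes read as 1 value. Col28a1 and Col6a6, which the RefSeq gene table lists under the same form of symbol, were not among the annotated probe sets and were not analysed here. The 2 groups were 4 livers of the strain BKS.Cg-Leprdb (db/db) and 5 livers of C57BL/KSlepr+/+ (BKS), described by the submitters as littermates, all male, 14 weeks old and fed regular chow. The receptor mutation of db/db mice is carried by every cell of the body, and by the labelled age these mice have fatty liver along with obesity and diabetes. The labelled RNA for each array was made from 8 µg of total RNA from liver. The labels do not state that the arrays of a group came from separate mice, and the p-values therefore cover only the scatter among the arrays.

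Collagens are secreted proteins built of 3 chains wound into a triple helix. Fibril-forming collagens such as types I and III make the scars of a fibrotic liver, type IV makes the mesh of basement membranes, type VI makes beaded filaments around cells, and types XV and XVIII lie at the edge of basement membranes. In liver the fibrillar chains come mainly from hepatic stellate cells and portal fibroblasts, whereas Col18a1, whose C-terminal fragment is endostatin, is also made by hepatocytes. After synthesis the chains are hydroxylated, folded, secreted, trimmed and crosslinked, and matrix metalloproteinases later cut them.

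The head-to-head arrangement of genes for type IV chains sets the background for the values of Col4a1 and Col4a2. In RefSeq on GRCm38.p6, the start sites of these 2 genes lie 21 bases apart on chromosome 8. The genes lie on opposite strands, and each runs across the start site of the other. Windows from 250 bases before to 50 bases after each start overlap by 78 bases, at chr8:11312777-11312854. The Col4a2 window is shown on the plus strand, chr8:11312555-11312854, with the bases shared with the Col4a1 window in capitals.
Col4a2: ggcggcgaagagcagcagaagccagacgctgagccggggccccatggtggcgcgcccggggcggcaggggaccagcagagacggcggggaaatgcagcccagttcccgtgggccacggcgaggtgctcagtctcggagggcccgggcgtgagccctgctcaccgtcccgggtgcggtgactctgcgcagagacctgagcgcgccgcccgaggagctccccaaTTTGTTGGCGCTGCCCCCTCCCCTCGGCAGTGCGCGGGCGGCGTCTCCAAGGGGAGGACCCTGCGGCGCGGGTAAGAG
Col1a2 and Col3a1 encode fibrillar chains of scar tissue, and their windows are shown because the values of both genes are given in full further on. Capitals mark the sequence CCAAT, the core of the box bound by the factor NF-Y, and TATAAA, a form of the TATA box, on either strand. They mark matches at any position in the window, and whether a match acts as such a box was not tested. The windows lie on the plus strand at chr6:4505368-4505667 for Col1a2 and at chr1:45311288-45311587 for Col3a1.
Col1a2: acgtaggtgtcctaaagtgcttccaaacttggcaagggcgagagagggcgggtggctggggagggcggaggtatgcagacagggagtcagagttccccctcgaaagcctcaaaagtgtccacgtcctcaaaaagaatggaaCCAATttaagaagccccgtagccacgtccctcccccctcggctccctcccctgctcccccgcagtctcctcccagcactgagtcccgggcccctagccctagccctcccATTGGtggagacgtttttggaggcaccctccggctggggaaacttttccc
Col3a1: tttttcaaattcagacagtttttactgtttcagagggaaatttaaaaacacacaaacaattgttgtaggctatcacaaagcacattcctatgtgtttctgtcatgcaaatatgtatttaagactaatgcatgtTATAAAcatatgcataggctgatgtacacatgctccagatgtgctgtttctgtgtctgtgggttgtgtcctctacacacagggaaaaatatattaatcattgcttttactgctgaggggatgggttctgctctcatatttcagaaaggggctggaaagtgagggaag
The Col1a2 window held CCAAT 1 time on each strand, and the Col3a1 window held TATAAA 1 time. RefSeq windows were found for 33 of the 42 collagens, 36 windows in all. Of these windows, 13 held CCAAT on either strand (36.1%), against 37.4% of 32851 windows of all genes, and 13.9% held TATAAA, against 13.6% of all windows. Both motifs were thus about as frequent in the collagen windows as in the windows of all genes.

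Array values are given as log2(signal + 16), quantile normalized across the 9 arrays, so that a signal near 0 reads close to 4 before normalization. Probe sets differ in how brightly they respond, so bright and dim describe the signal on the array and not the abundance of a transcript. The deposited table gives no detection calls. Median signals lay between 67.4 and 110.8 across the arrays. Probe sets for 18S ribosomal RNA divided the arrays within both genotypes. Mean 18S signal was 941 to 6922 on db/db 3, db/db 4, BKS 4 and BKS 5, and 12.5 to 22.8 on the other 5 arrays. Results are therefore also given within each of these sets (high and low 18S), and with the 18S set as a block in the fit. Probe sets for 18S can take up signal when ribosomal RNA enters the labelling, but no label records how these arrays differed.

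No collagen was called higher or lower in db/db livers. In the limma fit over all 18193 genes, 0 of 42 collagens were higher and 0 lower at a Benjamini-Hochberg adjusted p under 0.05, whereas 2.89% of all genes rose and 2.6% fell, 5.49% together. At an unadjusted p under 0.05 there were 5 collagens (11.9%), against 17.6% of all genes. The median log2 fold change of the collagens, db/db over BKS, was -0.04, beside -0.00 for all genes. The middle part of the collagens, from the lower to the upper quartile, ran from -0.20 to 0.46, and the whole range from -1.12 for Col2a1 to 1.33 for Col9a1. There were 20 collagens with a positive and 22 with a negative log2 fold change. In whole liver RNA, fewer cells of a type and less RNA per cell cannot be told apart.

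**Figure D1:**
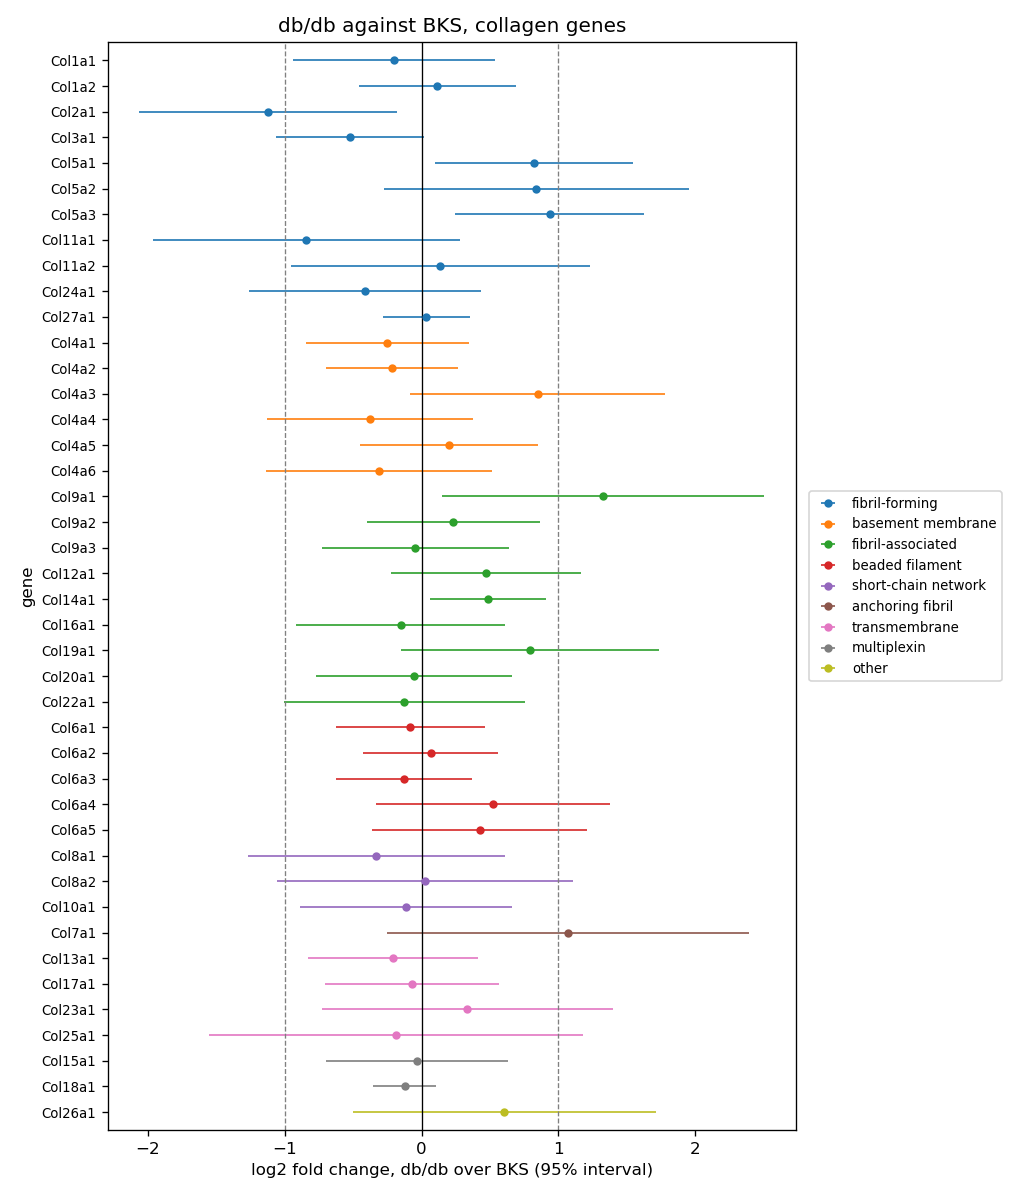
Log2 fold change of each of the 42 collagens, db/db over BKS (x axis), with its 95% interval from the limma fit; genes are listed by structural class, and dashed lines mark -1 and 1. No gene passed an adjusted p of 0.05, and the intervals of 19 genes lie wholly between the dashed lines.

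How much change the arrays could have missed differed between collagens. The 95% interval of the log2 fold change lay wholly between -1 and 1 for 19 of 42 collagens (45.2%), against 48.6% of all genes. Of the 14 collagens whose mean was above that of the median gene, 11 had such an interval, against 8 of the 28 at or below it. The median standard error was 0.25 for the brighter collagens, 0.40 for the dimmer ones and 0.32 for all genes. A change of 2-fold or more thus lies outside the interval for most of the brighter collagens and inside it for most of the dimmer ones.

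**Figure D2:**
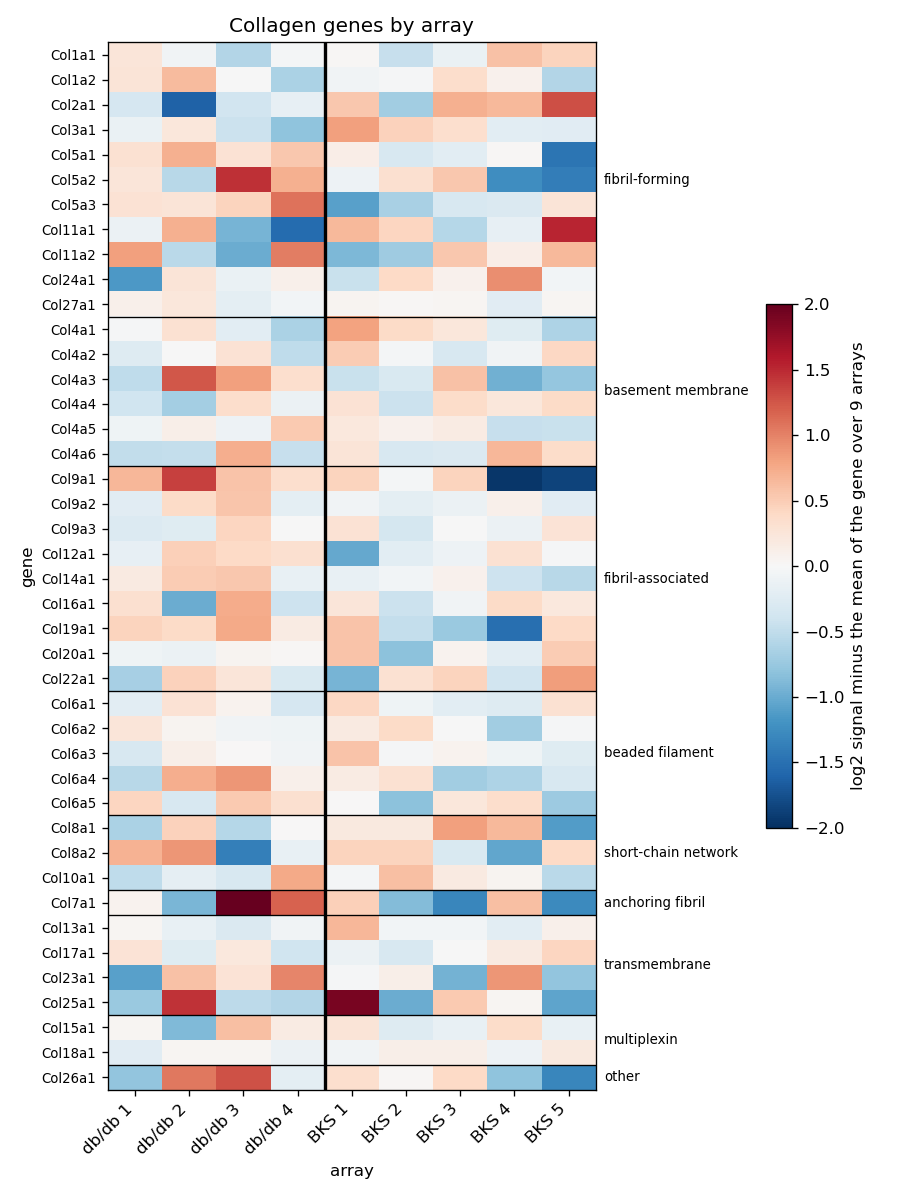
Deviation of each collagen's quantile-normalized log2(signal + 16) from its own mean over the 9 arrays (colour), with db/db arrays to the left of BKS arrays. Col5a1 is the only gene for which all db/db arrays read higher than all BKS arrays, and in Col25a1 1 array of each genotype, db/db 2 and BKS 1, stands high.

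The chains of type I collagen, the main protein of liver scars, overlapped between the genotypes. Col1a2, its alpha 2 chain, read 9.02, 9.40, 8.76 and 8.13 in db/db livers, against 8.69, 8.74, 9.12, 8.84 and 8.17 in BKS livers. The lowest values, db/db 4 and BKS 5, come from both groups and both carried high 18S signal. Its log2 fold change was 0.12 ± 0.27 (SE, n = 4 and 5 arrays, adjusted p = 0.878), and the 95% interval of the ratio of db/db to BKS ran from 0.73 to 1.61. Col1a1, the alpha 1 chain, read 6.78, 6.48, 5.96 and 6.50 in db/db livers, against 6.56, 6.08, 6.41, 7.13 and 6.98 in BKS livers. BKS 4 and BKS 5 were the highest arrays for this chain, and the groups overlapped (log2 fold change -0.20 ± 0.34, adjusted p = 0.834). Within the low 18S arrays the Col1a1 difference was 0.28, and within the high 18S arrays -0.82.

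Col3a1, the chain of type III collagen, which forms fine reticular fibres beside type I, was lower on average in db/db livers, short of a call. It read 9.73, 10.10, 9.43 and 9.06 in db/db livers, against 10.68, 10.33, 10.20, 9.65 and 9.64 in BKS livers. Among low 18S arrays all BKS values lay above both db/db values, and among high 18S arrays likewise, while across the sets the groups overlapped. The log2 fold change was -0.52 ± 0.25 (adjusted p = 0.301), with differences of -0.49 within the low 18S arrays and -0.40 within the high 18S arrays, and with an adjusted p of 0.0823 with the 18S block. With the replicate numbers as a block, numbers that do not pair mice by any label, Col3a1 was called lower (-0.64, adjusted p = 0.0486). Its other probe set gave -0.82 (adjusted p over all probe sets 0.431). Leaving out any 1 array left Col3a1 uncalled, with log2 fold changes from -0.70 to -0.35.

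**Figure D3:**
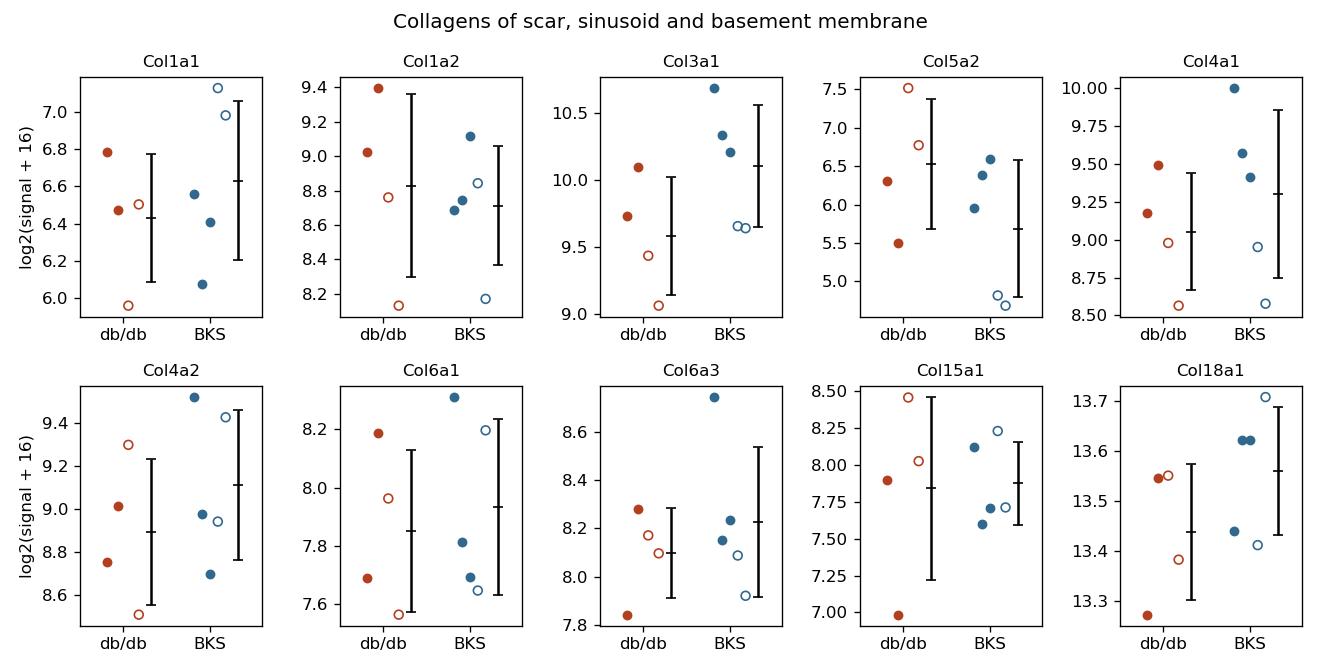
Quantile-normalized log2(signal + 16) of 10 collagens of scar, sinusoid and basement membrane in each array (filled points, low 18S; open points, high 18S), with the mean and SD of each group, db/db left of BKS. Groups overlap for every gene shown, and Col18a1 has the narrowest spread.

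Type V collagen, which sits inside type I fibrils and sets their width, includes the collagen with the smallest adjusted p. Col5a3 read 7.78, 7.74, 7.93 and 8.57 in db/db livers, against 6.40, 6.84, 7.16, 7.19 and 7.74 in BKS livers. The highest BKS array met the lowest db/db array, and all other BKS values lay below every db/db value. Its log2 fold change of 0.94 ± 0.32 had an adjusted p of 0.124 and was 0.96 within the low and 0.78 within the high 18S arrays. A second Col5a3 probe set, near the bottom of the scale, gave -0.07. Col5a1, the chain found in most type V molecules, read 7.85, 8.25, 7.84 and 8.09 in db/db livers, against 7.69, 7.23, 7.35, 7.57 and 6.09 in BKS livers. It was the only collagen whose groups did not overlap (2.38% of collagens), all db/db values being higher, as they were for 4.73% of all genes, while 4.42% of all genes and 0 collagens were lower without overlap. BKS 5 lay far below the other BKS arrays. The Col5a1 difference was 0.82 ± 0.34 (adjusted p = 0.208), and its other probe sets gave 0.24 and -0.05. Col5a2, the remaining type V chain, read 6.31, 5.50, 7.52 and 6.77 in db/db livers, against 5.96, 6.39, 6.59, 4.82 and 4.68 in BKS livers. The low values of Col5a2 were BKS 4 and BKS 5, both with high 18S signal. Both lay near the bottom of the scale for Col5a2, with signals of 10 and 8.4. Its log2 fold change was 0.84 ± 0.52 (adjusted p = 0.451), made of -0.41 within the low 18S arrays and 2.40 within the high 18S arrays.

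The remaining fibril-forming genes are those of cartilage and of minor fibrils. Col2a1, the chain of cartilage collagen, read 6.49, 5.22, 6.46 and 6.67 in db/db livers, against 7.37, 6.14, 7.54, 7.48 and 8.12 in BKS livers. BKS 2 fell among the db/db values and the other BKS arrays lay above them (-1.12 ± 0.44, adjusted p = 0.186). The Col2a1 difference was -1.16 within the low 18S arrays and -1.23 within the high 18S arrays. Col11a1, a cartilage chain that joins type II fibrils, differed by -0.84 ± 0.52, and Col11a2 by 0.14 ± 0.51. Col24a1 differed by -0.41 and Col27a1, the most precisely measured of the class, by 0.03 ± 0.15. Over the 11 fibril-forming collagens, 6 differences were positive and 5 negative, with a median of 0.03.

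Col4a1 and Col4a2, which wind together into the main type IV molecule of sinusoids and vessels, differed little between genotypes. Col4a1 read 9.17, 9.49, 8.98 and 8.56 in db/db livers, against 9.998, 9.57, 9.41, 8.95 and 8.58 in BKS livers. On this probe set the values were lower on the high than on the low 18S arrays in both genotypes, whereas the second Col4a1 probe set read 8.32, 8.66, 8.87 and 7.74 in db/db livers, against 7.93, 8.60, 8.60, 8.70 and 9.03 in BKS livers, without that order. Col4a2 read 8.75, 9.01, 9.30 and 8.51 in db/db livers, against 9.52, 8.98, 8.70, 8.94 and 9.42 in BKS livers, with overlap and without that order. The log2 fold changes were -0.25 ± 0.28 for Col4a1 and -0.22 ± 0.22 for Col4a2 (adjusted p = 0.722 and 0.689), neither larger than its standard error. Across the 9 arrays the 2 genes correlated at 0.27 (Pearson, permutation p = 0.479). The coefficient was -0.66 without the 2 arrays farthest from the Col4a1 median, and 0.65 with genotype and 18S means removed. Any part of the overlapping start windows in these values was not tested. Ratios of db/db to BKS below 0.56 for Col4a1 and below 0.62 for Col4a2, or above 1.27 and 1.20, lie outside their 95% intervals.

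The other type IV chains, known mainly from kidney and other specialised basement membranes, were dim. Col4a3 differed by 0.85 ± 0.43 (adjusted p = 0.340) and Col4a4, its usual partner, by -0.38 ± 0.35. The start sites of Col4a5 and Col4a6 on the X chromosome are 1343 bases apart, and their differences were 0.20 and -0.31. Neighbouring type IV genes at these dim levels thus showed opposite signs within both pairs, and none of the 4 genes passed the threshold. The median over the 6 basement membrane collagens was -0.23.

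Type VI chains were bounded about as tightly as type IV. Col6a1, which every type VI molecule needs, read 7.69, 8.19, 7.96 and 7.56 in db/db livers, against 8.31, 7.81, 7.69, 7.65 and 8.20 in BKS livers. Col6a3, whose C-terminal fragment is the adipokine-like endotrophin, read 7.84, 8.28, 8.17 and 8.10 in db/db livers, against 8.74, 8.15, 8.23, 8.09 and 7.92 in BKS livers. Both genes overlapped throughout, and only BKS 1 stood above all db/db arrays for Col6a3. The log2 fold changes were -0.08 ± 0.25 for Col6a1, 0.07 ± 0.23 for Col6a2 and -0.13 ± 0.23 for Col6a3, and their 95% intervals lay between -0.63 and 0.56. Col6a4 and Col6a5, alternative chains that can take the place of Col6a3, differed by 0.52 ± 0.40 and 0.43 ± 0.36. Other probe sets had the opposite sign, with -0.93 ± 0.51 for Col6a4 and -0.67 ± 0.62 for Col6a2.

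Col18a1 was the most precisely measured collagen. It read 13.27, 13.54, 13.55 and 13.38 in db/db livers, against 13.44, 13.62, 13.62, 13.41 and 13.71 in BKS livers, and the groups overlapped. The log2 fold change was -0.12 ± 0.11 (adjusted p = 0.622), and the 95% interval of the ratio of db/db to BKS ran from 0.78 to 1.08, so a ratio below 0.78 lies outside it. Its other probe set gave -0.20. Col15a1, its close relative in the basement membranes of vessels, read 7.90, 6.99, 8.46 and 8.03 in db/db livers, against 8.13, 7.60, 7.71, 8.23 and 7.71 in BKS livers. Both the highest and the lowest Col15a1 value were db/db arrays, and the difference was -0.03 ± 0.31.

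Collagens that sit on the surface of fibrils had the highest class median among classes of several genes, 0.23 over 9 genes, with 5 positive and 4 negative. That median is the value of Col9a2, which was dim on every array (signals of 5.7 to 24.8). Col14a1, which binds type I fibrils and decorin, read 9.50, 9.83, 9.85 and 9.18 in db/db livers, against 9.17, 9.27, 9.40, 8.91 and 8.76 in BKS livers. The db/db arrays were higher within each 18S set, and only db/db 4 fell among the BKS values (0.49 ± 0.20, adjusted p = 0.200, and 0.0861 with the 18S block). All 3 Col14a1 probe sets were positive, at 0.49, 0.20 and 0.28. Col9a1, a chain of cartilage type IX collagen, read 7.38, 8.08, 7.28 and 7.04 in db/db livers, against 7.15, 6.68, 7.16, 4.76 and 4.85 in BKS livers. The low values were BKS 4 and BKS 5, the high 18S arrays of that genotype. Both lay near the bottom of the scale for Col9a1, with signals of 9.2 and 10.9. Its log2 fold change was 1.33 ± 0.55 (adjusted p = 0.215), being 0.74 within the low 18S arrays and 2.35 within the high 18S arrays, and its other probe set gave -0.25. With the 18S block Col9a1 was called higher (1.47, adjusted p = 0.0307), the only collagen among genes of which 4.11% were then called higher and 4.13% lower. The difference within the high 18S arrays, which enters that call, rests on the dim values of BKS 4 and BKS 5. Col9a2 and Col9a3, the partner chains, differed by 0.23 and -0.04. Col12a1, a relative of Col14a1, differed by 0.47, Col16a1 by -0.15, Col19a1 by 0.79, Col20a1 by -0.06 and Col22a1 by -0.13, with the smallest adjusted p, 0.388, for Col19a1. Other Col19a1 probe sets gave -0.49 and 0.46.

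The last collagens are those of networks, membranes and anchoring fibrils. Col7a1, the anchoring fibril of skin, differed by 1.07 ± 0.61 (adjusted p = 0.411), being 0.15 within the low 18S arrays and 1.95 within the high 18S arrays. Short-chain network collagens were near 0 or below, with -0.33 for Col8a1, 0.03 for Col8a2 and -0.12 for Col10a1, the collagen of growth plate cartilage. Of the collagens that span the cell membrane, Col13a1 differed by -0.21, Col17a1, known from the hemidesmosomes of skin, by -0.07, Col23a1 by 0.34 and Col25a1 by -0.19. Col26a1, which falls in none of these classes, differed by 0.61 ± 0.51.

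The choice of probe set mattered more for the direction of a collagen than for its call. Of the 27 collagens with several probe sets, 12 had both signs among them. None of the 82 collagen probe sets passed an adjusted p of 0.05 when all named probe sets were fitted, and 7 had an unadjusted p under 0.05. Among these 7, a dim Col1a2 probe set that was not the one used gave 0.78 without overlap of the groups, whereas the others for Col1a2 gave 0.12 and -0.28. A second Col20a1 probe set gave 1.30, beside -0.06 for the one used. The counts of 12 and 7 were not set beside those of all genes, so whether collagens differ from other genes in this was not tested.

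The difference between genotypes took opposite signs in the low and high 18S arrays for 16 of the 42 collagens. This count was not set beside that of all genes, so whether collagens differ from other genes in this was not tested. A limma test of how the genotype effect differed between the 18S sets was added after the data were seen. It called 6 of 18193 genes and 0 of 42 collagens. At an unadjusted p under 0.05 there were 1209 of the 18193 genes and 3 of the 42 collagens. These 3 were Col5a2, whose effect in the low minus that in the high 18S arrays was -2.80 (adjusted p = 0.483), Col9a1 (-1.62, adjusted p = 0.715) and Col11a1 (2.04, adjusted p = 0.746). What part 18S signal has in the collagen values was not tested beyond these fits.

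Genes that process collagen were read in the same fit, by lists of enzymes and partners. Of all genes in that fit 2.89% rose, 2.6% fell and 17.6% had an unadjusted p under 0.05. Of 22 measured genes for collagen assembly and secretion, 2 rose and 1 fell, with a median of -0.09, and 7 had an unadjusted p under 0.05. Plod1, a lysyl hydroxylase, rose by 0.83 ± 0.20 (adjusted p = 0.0257), and read 10.74, 10.81, 10.98 and 10.43 in db/db livers, against 9.42, 9.998, 9.63, 10.07 and 10.43 in BKS livers. Colgalt1, which adds galactose to hydroxylysine, rose by 0.48 ± 0.13 (adjusted p = 0.0479). Ppib, the endoplasmic reticulum cyclophilin B that helps the triple helix fold, fell by 0.59 ± 0.09 (adjusted p = 0.00204). It read 13.68, 13.66, 13.77 and 13.56 in db/db livers, against 14.25, 14.23, 14.40, 14.17 and 14.26 in BKS livers, with no overlap.

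The list for procollagen trimming and crosslinking holds enzymes and also proteins that bind fibrils, such as decorin and lumican. Of its 21 measured genes 1 rose and 1 fell, against 2.89% and 2.6% of all genes, with a median of -0.24. An unadjusted p under 0.05 was found for 4 of the 21, against 17.6% of all genes. Bmp1, the proteinase that removes the C-terminal propeptide, rose by 0.41 ± 0.11 (adjusted p = 0.0424), and Tgm2, the tissue transglutaminase, fell by 0.78 ± 0.14 (adjusted p = 0.0053). Of 23 genes for collagen breakdown and its inhibitors, none rose and 1 fell, with a median of 0.09, and 4 had an unadjusted p under 0.05. The gene that fell was Plau, the urokinase that activates plasminogen (adjusted p = 0.0462). It read 5.86, 4.56, 4.34 and 5.62 in db/db livers, near the bottom of the scale, against 6.45, 6.75, 6.08, 6.97 and 6.72 in BKS livers. The size of its fall depended on the processing, from -2.35 to -0.74 on the log2 scale over the alternatives. Of 12 collagen receptors none was called by limma and 1 had an unadjusted p under 0.05, with a median of -0.05, and Stab1, a scavenger receptor, had the smallest p (0.52 ± 0.22, adjusted p = 0.233).

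Among 32 other matrix proteins 2 rose and 1 fell, against 2.89% and 2.6% of all genes, with a median of 0.05. An unadjusted p under 0.05 was found for 9 of the 32, against 17.6% of all genes. Lamb2, a laminin beta chain, rose by 1.59 ± 0.36 (adjusted p = 0.0194), Ecm1, a secreted matrix protein, rose by 0.94 ± 0.23 (adjusted p = 0.0322), and Lama3, a laminin alpha chain of epithelia, fell by 2.01 ± 0.30 (adjusted p = 0.00118). Lamb2 read 4.35, 5.58, 4.35, 4.96 and 4.66 in BKS livers, near the bottom of the scale. The size of its rise depended on the processing, from 0.78 to 2.62 on the log2 scale. TGF beta and platelet-derived growth factor signalling drive collagen synthesis in stellate cells. Of 25 genes for this signalling none rose and 2 fell, with a median of 0.00, and 7 had an unadjusted p under 0.05. Skil, a nuclear repressor of SMAD signalling, fell by 1.23 ± 0.17 (adjusted p = 0.000885). Pdgfc, a growth factor ligand, read 7.95, 7.85, 7.84 and 7.84 in db/db livers, against 10.19, 9.39, 9.77, 8.72 and 8.47 in BKS livers (-1.44 ± 0.31, adjusted p = 0.0149). With the 18S block 4.13% of all genes were called lower. Smad4, a shared mediator of TGF beta signalling, was then among them (adjusted p = 0.0184, against 0.254 without the block). The ligand genes Tgfb1, Tgfb2 and Tgfb3 were not called.

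Not all of these calls held when 1 array was left out. The calls of Ppib, Tgm2, Lama3, Skil and Pdgfc held in all 9 fits that left out 1 array. Those of Bmp1 and Colgalt1 were lost in all 9 such fits, with adjusted p of up to 0.138 and 0.141, and that of Plau in 8 of the 9, all but the fit without db/db 1. Plod1 lost its call without BKS 1, BKS 3, db/db 1, db/db 2 or db/db 3 (adjusted p up to 0.0945), Lamb2 without BKS 1, BKS 3 or db/db 2 (up to 0.0579), and Ecm1 without BKS 1, BKS 4, BKS 5 or any of db/db 2, db/db 3 and db/db 4 (up to 0.109). With the most variable probe set, Plod1, Tgm2 and Skil turned direction (-0.70, 0.43 and 0.88, none of them called).

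Markers of the cells that make or clear collagen were read as lists. Of 18 markers of hepatic stellate cells 15 were positive and 1, Ecm1, rose, with a median of 0.41, while 2.89% of all genes rose. An unadjusted p under 0.05 was found for 7 of the 18, against 17.6% of all genes. For 2 of the 18 all db/db values lay above all BKS values, as for 4.73% of all genes. The summed signal of the 18 markers was 12542 to 23094 in db/db livers and 6063 to 19743 in BKS livers, lowest on BKS 4 and BKS 5. With the 18S block 3 of the 18 stellate markers rose, Ecm1, Rgs5 and Lrat, while 4.11% of all genes were called higher. In the fit without the block Rgs5 had 1.32 (adjusted p = 0.0508) and Lrat, the retinol-storing enzyme, 0.94 (adjusted p = 0.0851). The negative markers in that fit were Gfap (-1.01, adjusted p = 0.253), Tagln (-0.77) and Nes (-0.20). The collagens, which stellate cells also make, had a median of -0.04. The part of stellate cells in the collagen values was not tested.

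Liver endothelial markers had a median of 0.12 with 0 of 12 called and 4 at an unadjusted p under 0.05, against 5.49% and 17.6% of all genes. The 12 endothelial markers summed to 3197 to 8298 in db/db livers and 3095 to 6831 in BKS livers. Their member with the smallest p was Pecam1 (1.55 ± 0.52, adjusted p = 0.112). Pecam1 (adjusted p = 0.0470) and Ehd3 (adjusted p = 0.0342) were called higher with the 18S block, as were 4.11% of all genes. Kupffer cell and macrophage markers ran the other way, with 9 of 12 negative, a median of -0.47 and 1, Cd9, called lower (-1.27 ± 0.30, adjusted p = 0.0247). Of all genes 2.6% were called lower. An unadjusted p under 0.05 was found for 5 of the 12, against 17.6% of all genes. Cd9, Cd5l and Adgre1 were called lower with the 18S block (adjusted p = 0.00939, 0.0249 and 0.0364), as were 4.13% of all genes. The summed signal of the 12 markers was 3650 to 9396 in db/db livers and 6394 to 17197 in BKS livers. Cd9 lost its call without BKS 2, BKS 3 or db/db 3 (adjusted p up to 0.0585).

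None of 12 markers of portal fibroblasts and smooth muscle was called by limma, and 0 had an unadjusted p under 0.05, with a median of -0.03, a summed signal of 489 to 1110 in db/db and 650 to 1067 in BKS livers, and Cd34 as the member with the smallest p (0.67, adjusted p = 0.434). None of 6 mesothelial markers was called, and 0 had an unadjusted p under 0.05, with a median of -0.40, sums of 365 to 1062 in db/db and 536 to 993 in BKS livers, and Upk1b with the smallest p (0.82, adjusted p = 0.439). None of 5 cholangiocyte markers was called, and 2 had an unadjusted p under 0.05, with a median of -0.47, sums of 264 to 650 in db/db and 541 to 747 in BKS livers, and Sox9 with the smallest p (-1.51, adjusted p = 0.0800). Sox9 was called lower with the 18S block (adjusted p = 0.0268), as were 4.13% of all genes. Without the block 17.6% of all genes had an unadjusted p under 0.05. The 7 hepatocyte markers had a median of -0.07 and 0 calls, 2 having an unadjusted p under 0.05, with sums of 195241 to 358396 in db/db and 219946 to 455112 in BKS livers, and Hnf4a had the smallest p (-0.35, adjusted p = 0.125). Hepatocyte transcripts such as albumin were bright on every array, which is what liver RNA holds.

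**Figure D4:**
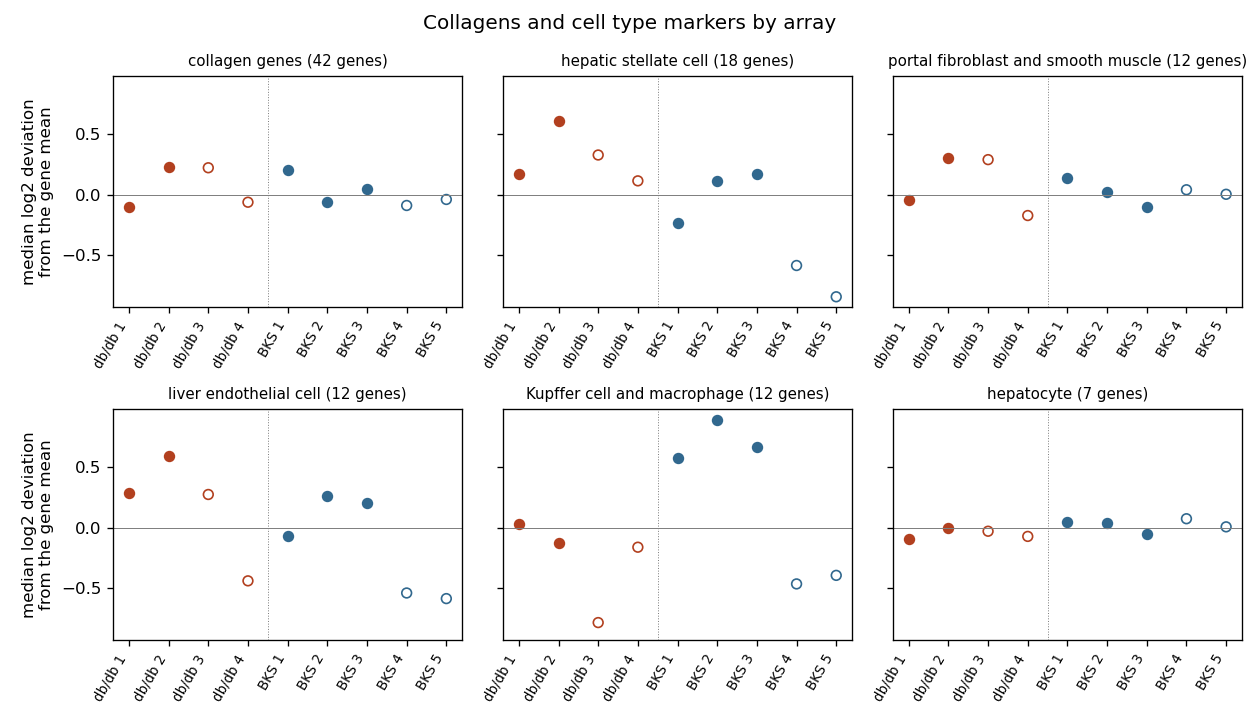
Median deviation of the collagens and of 5 marker lists from each gene's own mean over the 9 arrays (y axis, log2), for each array, db/db left of BKS (filled points, low 18S; open points, high 18S). Stellate, endothelial and Kupffer cell lists are lower on BKS 4 and BKS 5 than on the other BKS arrays, while the median of the collagens stays within 0.23 of 0 on every array.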

How the data were processed

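Biotin-labelled cRNA from 8 µg of total liver RNA of 100 mg frozen aliquots was hybridised to Affymetrix arrays, per the labels' protocols. The deposited table holds 1 linear intensity per probe set (45101) and array. The software that made it is not given in the sources used here. Its mean after trimming 2% at each end was 500.003 to 500.005 on every array. No 2 arrays were identical.

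Intensities were taken as log2(value + 16) and quantile normalized. Probe sets with 1 symbol numbered 34945. Probe sets with several symbols (932) or with none listed (9160), and 64 control probe sets, were left out. Symbols of 34754 matched RefSeq, and 0 changed. The probe set of highest mean stood for a gene. limma 3.58.1 in R 4.3.3 (lmFit, eBayes with trend) fitted genotype over 9 arrays and 18193 genes, with Benjamini-Hochberg adjustment and a threshold of 0.05, after tests on simulated data.

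Members and lists were chosen with earlier results of these data known. The lists hold 213 genes, of which 200 were measured. Values by array were given for 10 preset collagens of scar, sinusoid and basement membrane, and those with an unadjusted p under 0.05 were given with their adjusted p. From each list up to 3 called genes per direction were named, or else the gene of smallest p. Genes outside that rule (Rgs5, Lrat, Gfap, Tagln, Nes, Ehd3, Cd5l, Adgre1, Smad4 and the Tgfb ligands) and single probe sets were chosen after their values were seen. Same-numbered arrays of the 2 genotypes correlated at -0.07 to 0.17 in their deviations and other pairs at -0.15 to 0.12. The ranges overlapped, but the arrays numbered 2 (0.17) and 4 (0.13) correlated above every pair of unequal numbers. Whether equal numbers mark pairs is therefore not decided. Alternatives changed the normalization, pseudocount, filter, probe set rule, eBayes options, array weights, blocks and arrays, 1 at a time. Precision is limited by the number of arrays.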

Additional observations from a re-analysis of the deposited data

Results flagged for a closer look

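In 9 of 120 groups tested (7.5%), made of the collagens and the other genes named from the lists by genotype, 1 array lay far from the others of its genotype, measured as its gap to the nearest array over the group's whole range. Chance alone flags about 1 in 20 groups. Among collagens, db/db 2 was low for Col2a1 (5.22 against 6.46 to 6.67, gap ratio 0.8532) and high for Col25a1 (7.40 against 5.21 to 5.42, gap ratio 0.9008). For Col4a6, db/db 3 was high (6.38 against 5.16 to 5.19, gap ratio 0.9765). In BKS livers, BKS 2 was low for Col4a4 (5.51 against 6.18 to 6.33, gap ratio 0.8193), BKS 5 was low for Col5a1 (6.09 against 7.23 to 7.69, gap ratio 0.7114) and BKS 4 was low for Col27a1 (9.38 against 9.63 to 9.66, gap ratio 0.8839). Without BKS 5 the Col5a1 difference was 0.55. Among the other named genes, db/db 3 was high for Bmp1 (11.18, gap ratio 0.8593) and low for Lama3 (5.85, gap ratio 0.8892), and db/db 1 was high for Pdgfc by a narrow margin (7.95 against 7.84 to 7.85, gap ratio 0.9072).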

How the results depend on the processing

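No collagen was called in either direction under 22 of 24 alternatives. With the 18S block 1 collagen rose (Col9a1), and with the replicate block 1 fell (Col3a1, -0.64, adjusted p = 0.0486); the cause was not tested. The collagen median log2 fold change stayed between -0.08 and 0.04 over all 24, with changes of sign, each within the array-to-array SD of 0.147. Counts for all genes were 323 higher and 212 lower with arrays centred on their medians, 254 and 212 with no intensity trend, and 370 and 260 with the probe set of largest variance, against 526 and 473 as reported. Within the low 18S arrays they were 216 and 220, and within the high 18S arrays 241 and 224, from fewer arrays.

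The counts of the pathway lists that differed from those reported by more than 1.5 times were these. With arrays centred on their medians, assembly had 0 genes rising and 0 falling, trimming 0 and 0, and breakdown 0 falling. Without normalization between arrays, assembly had 1 rising and 0 falling. With a pseudocount of 1, breakdown had 0 falling. Among genes above the median only, breakdown had 0 falling and other matrix proteins 1 rising. With the probe set of largest variance, assembly had 0 rising, trimming 0 falling, breakdown 0 falling and growth factor signalling 1 falling, and Plod1 (-0.70), Tgm2 (0.43) and Skil (0.88) turned direction. With the mean of probe sets, assembly had 0 rising, trimming 2 rising and 0 falling, breakdown 0 falling and signalling 1 falling. With every probe set tested, assembly had 1 rising and breakdown 0 falling. With no intensity trend, assembly had 0 rising and 0 falling, trimming 0 and 0, breakdown 0 falling, other matrix proteins 1 rising and signalling 1 falling. With robust eBayes, assembly had 1 rising, trimming 0 rising and breakdown 0 falling. With array weights, breakdown had 0 falling and other matrix proteins 1 rising. With the replicate block, assembly had 1 rising, trimming 0 rising and 2 falling, and breakdown 0 falling. In the low 18S arrays alone, assembly had 1 rising, trimming 0 rising, breakdown 0 falling and other matrix proteins 0 rising. In the high 18S arrays alone, assembly had 0 rising and 0 falling, trimming 0 and 0, breakdown 0 falling, other matrix proteins 1 rising and 0 falling, and signalling 0 falling. With the 18S block signalling had 3 falling, against 2 as reported, and the other pathway counts were equal to those reported. Leaving out 1 array gave 0 to 1 rising genes for assembly, 0 for trimming, 0 to 2 for other matrix proteins, and 0 to 1 falling for breakdown. The causes were not tested. The 95% interval lay within 1 log2 unit either way for 8 of 28 collagens at or below the median gene in signal and for 11 of 14 above it.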
